A study of Mus musculus with 4 samples.

Results

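The transcripts described here encode the calcium/calmodulin-dependent protein kinase II (CaMKII), its peptide inhibitors and calmodulin. They were measured in RNA precipitated from mouse hippocampus with an antibody to the kinesin-1 heavy chain KIF5C. The 8 genes were taken by symbol from the deposited count table, which holds 37411 gene rows: 4 subunit genes (Camk2a, Camk2b, Camk2d, Camk2g), 2 inhibitor genes (Camk2n1, Camk2n2) and 2 calmodulin genes (Calm2, Calm3). All 8 were present and passed the low-count filter, among 14357 genes tested. The series asked which RNAs associate with KIF5C. It held 2 libraries from the antibody to KIF5C (Kif5C IP libraries) and 2 from a control mouse IgG (IgG libraries), all from hippocampal lysates of mice aged 7 to 9 weeks. Both groups are defined by the antibody alone, with no treatment named, and the strain is not given in the sources used here. Each precipitation used the hippocampi of 2 mice, and 6 precipitations were pooled into 2 samples. Whether the pools behind an antibody's 2 libraries came from different animals is not given, so the p-values cover only library-to-library spread, possibly technical. No input RNA was analysed here, and every comparison sets Kif5C IP against IgG.

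CaMKII is a kinase whose subunits assemble into large rings. Calcium-loaded calmodulin binds each subunit and releases its autoinhibition, after which neighbouring subunits phosphorylate each other and stay active when calcium has fallen. In the hippocampus the alpha and beta subunits are major proteins of the synapse and are known for their part in long-term potentiation. The mRNA of the alpha subunit, Camk2a, is a classic example of a message carried into dendrites, and it has been found in RNA granules attached to kinesin-1 motors. Camk2n1 and Calm3 mRNAs are also known in dendrites.

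Sequence decides how well reads of such related genes can be told apart, so the most similar members are shown first. Calm2 and Calm3 encode the same protein of 149 residues, yet their coding sequences of 450 bases differ at 78 positions. The stretches below are coding bases 37 to 126, in exon 3 of each gene (GENCODE mouse release M21, GRCm38, minus strand), at chr17:87435843-87435932 and chr7:16917637-16917726. Capitals mark the 16 bases that differ.
Calm2: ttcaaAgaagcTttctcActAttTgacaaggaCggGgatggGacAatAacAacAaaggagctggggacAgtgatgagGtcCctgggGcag
Calm3: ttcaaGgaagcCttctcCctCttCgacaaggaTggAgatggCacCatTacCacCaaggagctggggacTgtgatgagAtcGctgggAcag
The longest identical run between the coding sequences was 17 bases. Subunit genes show the same pattern around the threonine whose autophosphorylation keeps the kinase active. Its codon stands in capitals in exon 11 of Camk2b (chr11:5988967-5989029, minus strand), Camk2d (chr3:126797711-126797773, plus strand) and Camk2g (chr14:20760409-20760471, minus strand).
Camk2b: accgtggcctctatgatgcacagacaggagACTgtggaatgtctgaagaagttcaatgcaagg
Camk2d: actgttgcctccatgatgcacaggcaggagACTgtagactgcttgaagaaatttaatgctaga
Camk2g: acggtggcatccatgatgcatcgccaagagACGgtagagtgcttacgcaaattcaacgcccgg
Camk2b differed from Camk2d at 12 of these 63 bases and from Camk2g at 20, while 1 of the 21 encoded residues differed in either pair. Over all annotated transcripts, stretches of 31 bases found also in another gene made 0.790% of the total in Camk2a, 0.371% in Camk2b, 0.131% in Camk2d, 0% in Camk2g, 0.0906% in Camk2n1 and 0% in Camk2n2. Those shares were 4.99% in Calm3, all of it with Gm5881, and 18.1% in Calm2, with Gm7308 the gene it shared most with. Neither Gm5881 nor Gm7308 is among the deposited gene rows, so how reads shared with them were assigned cannot be seen. By sequence alone, the calmodulin counts, Calm2 in particular, may be less certain than the kinase counts. Camk2d overlaps 8 other annotated genes, 1 of them on the opposite strand, and Camk2n2 overlaps 1 on the opposite strand. The strandedness of the counting is not given in the sources used here. The 31-base measure took both strands, so annotated transcripts of Camk2d (0.131%) and Camk2n2 (0%) shared little or no sequence with these partners.

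The libraries held 15172432 and 14623843 counts (Kif5C IP) and 12543510 and 11059266 counts (IgG). The mitochondrial 16S rRNA mt-Rnr2 took 11.3% and 31.9% of the Kif5C IP counts and 7.36% and 32.2% of the IgG counts, so the libraries numbered 2 stood apart from those numbered 1 in both groups. Levels are given as CPM, read counts brought to a common library size with TMM scaling, and ratios within a library are given as well. The Kif5c mRNA measured 782 and 639 CPM in the Kif5C IP libraries against 565 and 667 in the IgG libraries (adjusted p = 0.702, edgeR). The antibody binds protein, so this value does not check the labels. Markers of neurons and of hippocampal excitatory cells were detected in every library, and no marker fixed for any of 8 cell types was at 0 throughout.

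None of the 8 mRNAs passed the threshold of an adjusted p under 0.05 in edgeR's quasi-likelihood test, against 4.07% of all genes tested (3.33% higher and 0.745% lower). Camk2b was nearest (1.65-fold, adjusted p = 0.137), followed by Camk2g. Both had an unadjusted p under 0.05, as did 21.5% of all genes. DESeq2 called 1 member, Camk2b (adjusted p = 0.034), where it called 4.37% of all genes higher, and limma-voom called 0 (smallest adjusted p = 0.0863). In 3 members (Camk2a, Camk2b, Camk2g) both Kif5C IP libraries lay above both IgG libraries, an arrangement that 26.3% of all genes showed. In 1 member (Calm3) both lay below, as in 26.2% of all genes. The 8 log2 fold changes had a median of 0.12, and the median of all genes was -0.03. The values were 6 positive and 2 negative, and they kept those signs when library totals replaced TMM, which moved the median of all genes to 0.11.

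**Figure D1:**
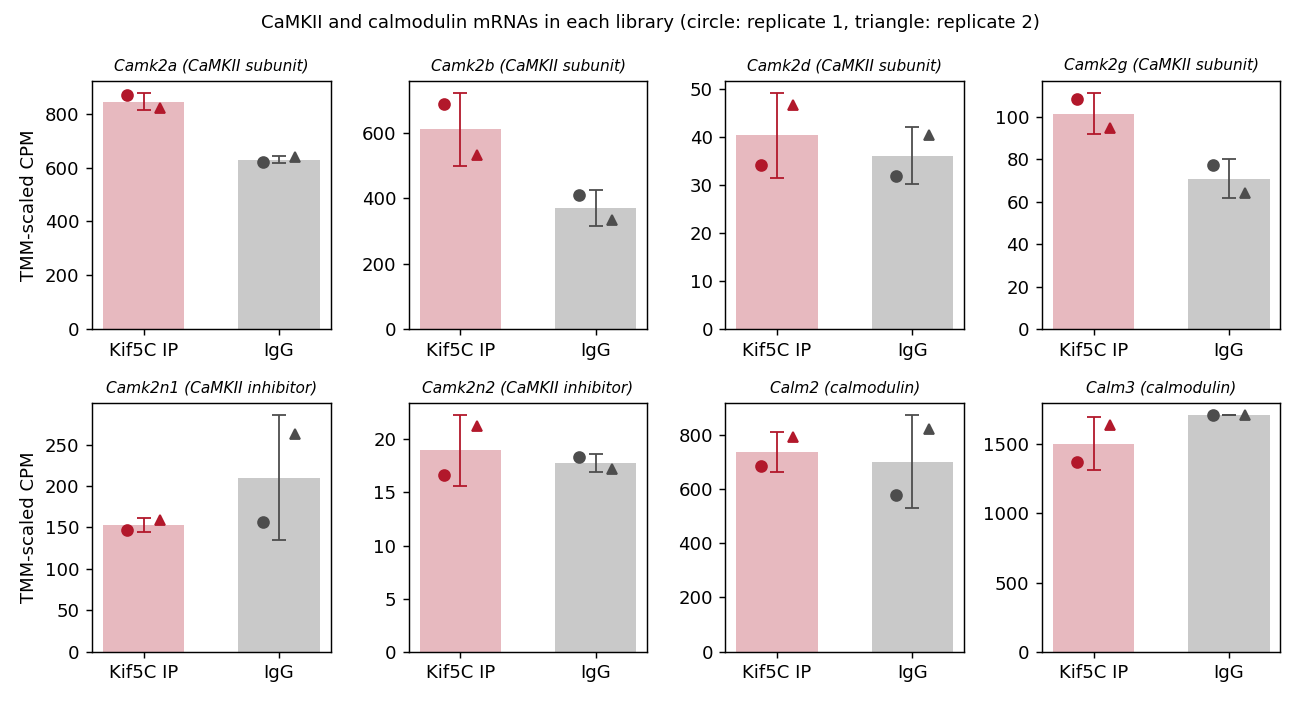
TMM-scaled CPM (vertical axes, each from 0) of the 8 mRNAs in the 2 Kif5C IP and 2 IgG libraries; bars are means, error bars SD, symbols single libraries. Camk2a, Camk2b and Camk2g lie higher in both Kif5C IP libraries, from 94.6 CPM for Camk2g to 868 for Camk2a, while Camk2n1 is high in 1 IgG library only (263 CPM).

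Among the kinase subunits, Camk2a (chromosome 18, 60925618 to 60988152) encodes alpha, the main subunit of forebrain excitatory neurons. It measured 868 and 822 CPM in the Kif5C IP libraries and 620 and 638 CPM in the IgG libraries. The groups did not overlap, and the libraries within each group lay close together. Its log2 fold change was 0.43 (SE 0.27, adjusted p = 0.381, edgeR), or 1.34-fold with a 95% interval of 0.905 to 1.99. The SE and p-value draw mostly on the spread that edgeR estimated over all genes, not on the spread of Camk2a alone. With offsets for GC content and transcript length the log2 fold change was 0.16 (adjusted p = 0.707).

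Camk2b (chromosome 11, 5969644 to 6066362) encodes beta, the subunit that binds actin filaments. It measured 689 and 532 CPM in the Kif5C IP libraries, against 409 and 332 CPM in the IgG libraries. Both Kif5C IP values were the higher ones, and replicate 1 exceeded replicate 2 within each group. The log2 fold change was 0.72 (SE 0.27, adjusted p = 0.137, edgeR), with a 95% interval of 1.11 to 2.45 on the fold scale, and DESeq2 gave the same size (0.72). All 95% intervals given here are per gene and, unlike the adjusted p, take no account of the number of genes tested. Across the 4 pairs of a Kif5C IP with an IgG library the log2 ratio ran between 0.38 and 1.05, and it was 0.75 between the libraries numbered 1 and 0.68 between those numbered 2. In the authors' deposited table, whose log2 values by their signs run as IgG over Kif5C, Camk2b had -0.66 (SE 0.21, adjusted p = 0.0264) and a fold of 1.58. It was the one member with a fold filled in there, and adjusted p-values of the other 7 lay between 0.146 and 0.879 in the authors' deposited table.

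Camk2g (chromosome 14, 20734875 to 20794088) encodes gamma, a subunit known to shuttle calmodulin to the nucleus. It measured 108 and 94.6 CPM in the Kif5C IP libraries and 77.5 and 64.4 CPM in the IgG libraries. The groups did not overlap, and the log2 fold change was 0.52 (SE 0.22, adjusted p = 0.183, edgeR), or 1.43-fold with a 95% interval of 1.04 to 1.97. Camk2d (chromosome 3, 126596302 to 126846326) encodes delta, best known from the heart. It measured 34.1 and 46.6 CPM in the Kif5C IP libraries and 31.9 and 40.3 CPM in the IgG libraries. These values interleaved, with replicate 2 the higher in each group. The difference of 0.16 on the log2 scale (SE 0.23, adjusted p = 0.724, edgeR) was within the spread between libraries, and it turned to -0.061 without Kif5C IP replicate 2 and to -0.00114 without IgG replicate 1.

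The inhibitor genes encode small proteins that bind the active kinase. Camk2n1 (chromosome 4, 138454314 to 138460123) measured 147 and 159 CPM in the Kif5C IP libraries against 156 and 263 CPM in the IgG libraries. Only IgG replicate 2 stood apart. The log2 fold change was -0.45 (SE 0.26, adjusted p = 0.33, edgeR), or 0.731-fold with a 95% interval of 0.500 to 1.07. It rested on that library: without IgG replicate 2 it was -0.018 (adjusted p = 0.975), and without IgG replicate 1 it was -0.78 and passed (adjusted p = 0.048). With offsets for GC content and length it was -0.72 (adjusted p = 0.13). Camk2n2 (chromosome 16, 20619215 to 20621287) was scarcer, at 16.6 and 21.3 CPM in the Kif5C IP libraries and 18.4 and 17.2 CPM in the IgG libraries. The IgG values lay between the Kif5C IP values, and the log2 fold change was 0.09 (SE 0.23, adjusted p = 0.867, edgeR), with a 95% interval of 0.761 to 1.48 on the fold scale.

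Among the calmodulin genes, Calm3 (chromosome 7, 16915379 to 16924114) measured 1372 and 1639 CPM in the Kif5C IP libraries and 1710 CPM in each of the IgG libraries. Both Kif5C IP values were lower. The log2 fold change of -0.18 (SE 0.30, adjusted p = 0.766, edgeR) was nevertheless within the spread that the fit estimated, with a 95% interval of 0.566 to 1.37 on the fold scale. It was -0.35 (adjusted p = 0.428) with offsets for GC content and length. Calm2 (chromosome 17, 87433412 to 87446935) measured 685 and 791 CPM in the Kif5C IP libraries and 580 and 822 CPM in the IgG libraries. The IgG values enclosed the Kif5C IP values, and the log2 fold change was 0.07 (SE 0.28, adjusted p = 0.911, edgeR), with a 95% interval of 0.695 to 1.60 on the fold scale. Calm2 moved more with the composition offsets than the other 7 members: at a GC content of 42.7% (58.3% in Calm3), its value was 0.58 (adjusted p = 0.132) with offsets for GC content and length. It turned to -0.15 without IgG replicate 1 and to -0.015 without Kif5C IP replicate 2.

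**Figure D2:**
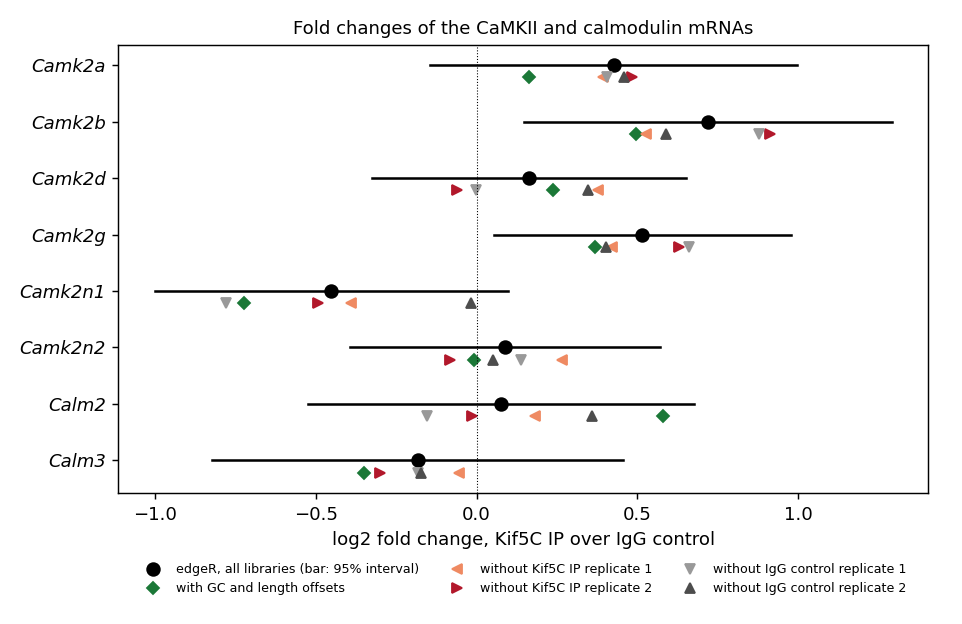
Log2 fold change (horizontal axis, Kif5C IP over IgG control) of each member: black points with 95% interval bars are edgeR on all 4 libraries, and coloured symbols are the fit with GC and length offsets and the fits without 1 library. Camk2a, Camk2b and Camk2g stay above 0 in every fit drawn (0.43, 0.72 and 0.52 on all libraries), while Calm2, Camk2d and Camk2n2 cross 0.

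Levels were compared between genes as CPM per kilobase of the longest annotated transcript, which need not be the transcript present. On that scale Calm3 averaged 657 in the Kif5C IP libraries and 747 in the IgG libraries, and Calm2 612 and 582. Camk2a followed with 170 in Kif5C IP and 127 in IgG, and Camk2b with 148 and 89.9. Then came Camk2n1 (34.5 in Kif5C IP and 47.2 in IgG), Camk2g (27.4 and 19.2), Camk2n2 (14.7 and 13.8) and Camk2d (7.30 and 6.53). The order was the same in both groups. Across the Kif5C IP libraries the neighbours Calm3 and Calm2 overlapped, at 599 and 716 per kilobase for Calm3 and 569 and 656 for Calm2. Camk2a (175 and 165 per kilobase) and Camk2b (167 and 129) overlapped there too. Within every single library, however, Calm3 was above Calm2 and Camk2a above Camk2b. With the median annotated transcript length instead, Camk2g (151 in Kif5C IP and 105 in IgG) stood above Camk2n1 (34.5 and 47.2), and Camk2d (15.9 and 14.2) above Camk2n2 (14.7 and 13.8), so those places in the order rest on the length used. By that length Calm3 (2646 in Kif5C IP and 3005 in IgG) stood far above Calm2 (852 and 809), so their nearness rests on it too.

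Ratios within a library do not depend on the scaling between libraries, but they were not corrected for GC content and length. With offsets for these, the log2 fold changes were 0.16 for Camk2a and 0.50 for Camk2b. They were 0.58 for Calm2, -0.35 for Calm3 and -0.72 for Camk2n1. The ratios below were not computed with offsets. The summed subunit counts were 0.826 and 0.615 of the summed Calm2 and Calm3 counts in the Kif5C IP libraries, and 0.497 and 0.424 in the IgG libraries. Both Kif5C IP ratios were higher, 1.56-fold on average. Against the summed inhibitor counts the subunits stood at 10.4 and 8.27 in the Kif5C IP libraries and at 6.51 and 3.83 in the IgG libraries, again without overlap. An exact two-sided permutation test gave p = 0.333 for each ratio, which is the smallest p that 2 libraries against 2 allow, so these tests cannot reach 0.05. Over the 31 sums, shares and ratios computed, the smallest Benjamini-Hochberg adjusted p was 0.608. These ratios were chosen after the members' values were seen.

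Within the kinase pool, Camk2a made 46.3% and 50.4% of the summed subunit level per length in the Kif5C IP libraries, against 49.8% and 55.0% in the IgG libraries. The groups overlapped (exact permutation p = 0.667), with a difference of -4.02 percentage points. Camk2b made 44.3% and 39.3% in the Kif5C IP libraries and 39.6% and 34.5% in the IgG libraries, also with overlap. The ratio of Camk2a to Camk2b counts was 1.26 and 1.55 in the Kif5C IP libraries, against 1.51 and 1.92 in the IgG libraries. Camk2b stood at 20.2 and 11.4 counts per Camk2d count in the Kif5C IP libraries and at 12.8 and 8.24 in the IgG libraries, with overlap. Per Camk2g count it stood at 6.36 and 5.62 in the Kif5C IP libraries and at 5.28 and 5.16 in the IgG libraries, without overlap. Of the summed Calm2 and Calm3 level per length, Calm3 made 51.3% and 52.2% in the Kif5C IP libraries and 60.8% and 52.2% in the IgG libraries (exact permutation p = 0.333, the smallest possible). IgG replicate 1 alone was far from the others, and without it the difference was -0.51 percentage points instead of -4.80. The size of these shares rests on the longest annotated transcript. As plain counts, Calm3 stood at 2.00 and 2.07 per Calm2 count in the Kif5C IP libraries and at 2.95 and 2.08 in the IgG libraries.

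**Figure D3:**
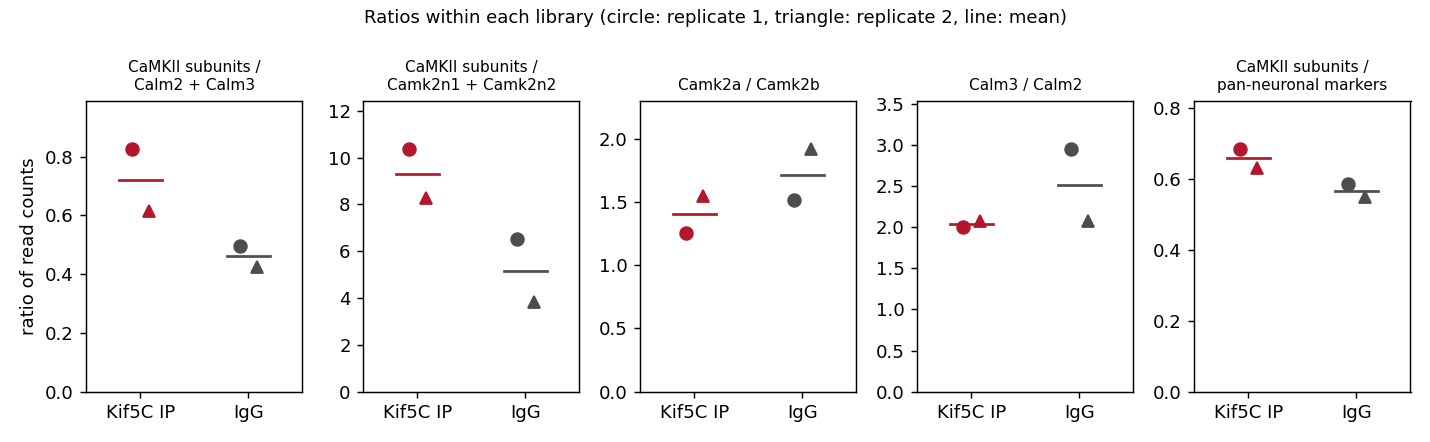
Ratios of read counts within each library (vertical axes, each from 0) for Kif5C IP and IgG, not corrected for GC content or length. Symbols are single libraries and lines are means. The subunit sum relative to Calm2 and Calm3 and relative to the inhibitors is higher in both Kif5C IP libraries (0.826 and 0.615 against 0.497 and 0.424 for calmodulin), while Camk2a to Camk2b overlaps.

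The alpha and beta subunits are made mainly by neurons, and neuron markers were higher alongside them. The summed level of 6 pan-neuronal markers was 2485 and 2368 CPM in the Kif5C IP libraries and 1946 and 1963 in the IgG libraries, with 0 of 6 past the edgeR threshold. Relative to those markers the subunit counts were 0.684 and 0.631 in the Kif5C IP libraries and 0.585 and 0.547 in the IgG libraries, a ratio of 1.16 between the means. For Camk2b alone the ratio of means was 1.32, and for Camk2a 1.08. Choroid plexus markers summed to 170 and 130 CPM in the Kif5C IP libraries against 436 and 237 in the IgG libraries, with 1 of 6 called, Ttr. Oligodendrocyte markers summed to 1661 and 1764 CPM in Kif5C IP and 1947 and 1915 in IgG, with 1 of 6 called lower, Mog. Excitatory neuron markers summed to 1310 and 1370 CPM in the Kif5C IP libraries and 1247 and 1014 in the IgG libraries, with 1 of 7 called lower, the pyramidal cell marker Spink8. Higher means were not confined to neuron markers. Astrocyte markers summed to 2788 and 1898 CPM in the Kif5C IP libraries and 2268 and 1820 in the IgG libraries, with overlap. The ratio of means was 1.15 for astrocyte, 1.07 for interneuron, 0.988 for microglia and 0.825 for endothelial markers, against 1.24 for pan-neuronal and 1.19 for excitatory neuron markers. In edgeR 0 of the astrocyte, microglia, endothelial and interneuron markers passed. The part of such markers in the kinase values was not tested. All libraries hold RNA recovered with an antibody, so the marker sums do not measure how many cells of a type were present.

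The other genes of calcium/calmodulin signalling were described as 6 lists. Of 14 genes that dock CaMKII at the synapse, 13 had a positive log2 fold change (median 0.40) and 0 passed in edgeR (4 at an unadjusted p under 0.05, all higher), while DESeq2 called 3 higher and limma-voom 2. Over all genes 47.6% had a positive value, the median was -0.03 and 12.4% were higher at an unadjusted p under 0.05. DESeq2 called 4.37% of all genes higher, and limma-voom called 533 of 14357 higher. Actn4, an actin crosslinker of the alpha-actinin family, measured 35.6 and 24.8 CPM in the Kif5C IP libraries and 13.4 and 19.2 in the IgG libraries (log2 fold change 0.91, SE 0.25, adjusted p = 0.052). Grin1, the obligatory NMDA receptor subunit, measured 304 and 245 CPM in the Kif5C IP libraries and 180 and 116 in the IgG libraries (0.89, SE 0.26, adjusted p = 0.0624). DESeq2 gave adjusted p-values of 0.0399 for Actn4 and 0.0153 for Grin1. With offsets for GC content and length Grin1 was at 0.57 (adjusted p = 0.108). Actn1 had 0.56 (SE 0.23) with an adjusted p of 0.167 in edgeR. Grin2a, another NMDA receptor subunit, was the 1 negative gene, at -0.0029.

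Of 20 other calmodulin effectors, 2 rose, 0 fell and 18 did not pass in edgeR, with a median of 0.38. Over all genes edgeR called 3.33% higher and 0.745% lower, and the median was -0.03. Camta2, a calmodulin-binding transcription activator, measured 200 and 140 CPM in the Kif5C IP libraries and 77.3 and 44.6 in the IgG libraries. It rose by 1.47 (SE 0.27, adjusted p = 0.0103, edgeR), or 2.77-fold, but did not pass when IgG replicate 2 was left out (1.15, adjusted p = 0.0605). Itpkb, a kinase of inositol trisphosphate, measured 30.6 and 29.4 CPM in the Kif5C IP libraries and 17.0 and 16.5 in the IgG libraries. It rose by 0.84 (SE 0.22, adjusted p = 0.0405, edgeR), but not with offsets for GC content and length (0.49, adjusted p = 0.167). It also missed without Kif5C IP replicate 1 (adjusted p = 0.3), Kif5C IP replicate 2 (0.145) or IgG replicate 2 (0.0785). Neuronal nitric oxide synthase Nos1 (0.82, adjusted p = 0.0654) and the calcium pump Atp2b2 (0.80, adjusted p = 0.0909) did not pass in edgeR and passed with DESeq2 (0.0417 and 0.0202). With offsets for GC content and length they were at 0.47 (adjusted p = 0.158) for Nos1 and 0.49 (adjusted p = 0.17) for Atp2b2.

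Proteins that hold calmodulin at rest made a list of 7, of which 1 rose, 0 fell and 6 did not pass in edgeR (median 0.35). The shares over all genes were 3.33% higher and 0.745% lower (median -0.03). Gap43, the growth cone protein neuromodulin, measured 39.7 and 46.1 CPM in the Kif5C IP libraries against 24.7 and 23.5 in the IgG libraries. It rose by 0.83 (SE 0.22, adjusted p = 0.0414, edgeR), or 1.78-fold, and missed without Kif5C IP replicate 1 (adjusted p = 0.175), Kif5C IP replicate 2 (0.259) or IgG replicate 2 (0.0859). Neurogranin, Nrgn, whose mRNA is also known in dendrites, measured 248 and 232 CPM in the Kif5C IP libraries and 176 and 155 in the IgG libraries. The groups did not overlap, but its value of 0.53 (SE 0.23, adjusted p = 0.191, edgeR) did not pass. Basp1 (0.45, adjusted p = 0.268) and Pcp4l1 (0.35, adjusted p = 0.435) did not pass either, and Pcp4l1 ran between 0.17 and 0.52 when 1 library was left out.

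Kinases and phosphatases of the pathway gave no call in edgeR, which called 4.07% of all genes. Over all genes 21.5% had an unadjusted p under 0.05 in edgeR, and the median log2 fold change was -0.03. Of 13 kinases of the wider CaMK group 12 were tested, 0 passed in edgeR, DESeq2 or limma-voom (1 at an unadjusted p under 0.05 in edgeR) and the median was 0.03, with the death-associated kinase Dapk1 at 0.56 (SE 0.22, adjusted p = 0.158) the nearest, and at 0.29 with offsets for GC content and length. Camk1g stood at 0.32 (adjusted p = 0.443), Camk1 at -0.29 (adjusted p = 0.466) and Camk1d at 0.27 (adjusted p = 0.535). Leaving out 1 library moved Camk1g between 0.12 and 0.60, Camk1 between -0.37 and -0.19 and Camk1d between 0.037 and 0.48. Of 12 genes for calcineurin, its regulators and its NFAT targets, 0 passed with any of these tools (3 at an unadjusted p under 0.05 in edgeR: 2 higher and 1 lower) and the median was 0.09. Nfatc2 had 0.82 (SE 0.30, adjusted p = 0.13), Nfatc1 0.96 (SE 0.43, adjusted p = 0.206) and Nfatc3 0.50 (SE 0.27, adjusted p = 0.298). Leaving out 1 library moved Nfatc1 between 0.59 and 1.76 and Nfatc3 between 0.097 and 0.83, and the offsets put Nfatc2 at 0.51. The calcineurin inhibitor gene Rcan1 had -0.51 (SE 0.22, adjusted p = 0.18). Of 9 phosphatase genes that act on CaMKII or its substrates, 0 passed in edgeR or limma-voom (4 at an unadjusted p under 0.05 in edgeR: 2 higher and 2 lower) and the median was -0.29. Ppp1r9b, encoding spinophilin, which anchors protein phosphatase 1 in spines, had 0.65 (SE 0.26, adjusted p = 0.163) and was called by DESeq2 (adjusted p = 0.0452), but with offsets for GC content and length it was at 0.24 (adjusted p = 0.618). The catalytic subunit genes Ppp1ca (-0.49, adjusted p = 0.233) and Ppp1cc (-0.46, adjusted p = 0.215) lay on the other side of 0, and Ppp2cb was at 0.50 (adjusted p = 0.222). Leaving out 1 library moved Ppp2cb between 0.24 and 0.80 and Ppp1ca between -0.63 and -0.31.

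**Figure D4:**
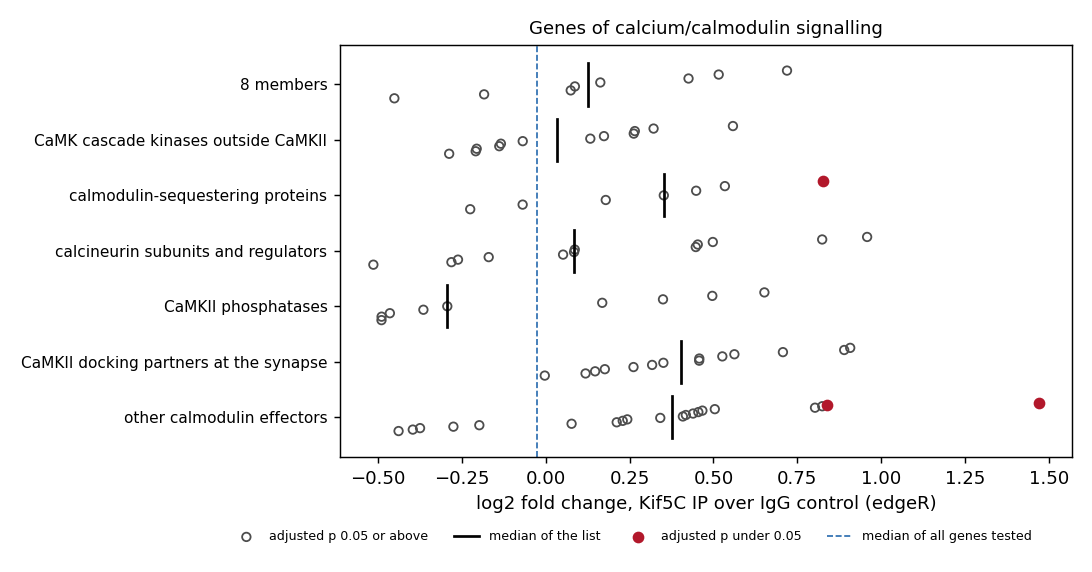
Log2 fold changes (horizontal axis, Kif5C IP over IgG control, edgeR) of the 8 members and of the tested genes of 6 pathway lists; filled points passed an adjusted p under 0.05, black bars are list medians and the dashed line is the median of all genes. Filled points are Gap43 (0.83), Itpkb (0.84) and Camta2 (1.47), and no member is filled.

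The genes whose levels ran most like a member's over the 4 libraries were found by the Euclidean distance between centred log2 CPM values, over 4443 candidates whose average log2 CPM reached 5 or more. For Camk2a they were Eif2ak1 (distance 0.025), Usf1 (0.044) and Mtmr2 (0.054), with log2 fold changes of 0.42, 0.39 and 0.42. For Camk2n1 they were BC030336 (0.060), Xiap (0.066) and Cpeb2 (0.080), each highest in IgG replicate 2. Calm3 had Cbx7 (0.019), Sertm1 (0.027) and Drg1 (0.041).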

How the data were processed

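The authors deposited a table of whole-number read counts per gene for 4 libraries, not normalized, with columns matched to libraries through the labels' descriptions. The tools Salmon and DESeq and the build GRCm38 are named in the submitters' processing notes, without settings. Per the file headers, the other deposited table is a comparison made by the authors: log2 fold changes with standard errors (IgG over Kif5C IP), p-values, a linear fold ratio, a test statistic (score) and a mean normalized count (signal); the statistic and the mean were not used.

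All 37411 rows entered edgeR 4.0.16 (R 4.3.3): filterByExpr (minimum count 10, minimum total 15), TMM, quasi-likelihood F test with the group as the only term, and Benjamini-Hochberg adjustment over 14357 genes at 0.05. SE is the log2 fold change divided by the square root of F, and 95% intervals use its degrees of freedom (16.8 for Camk2a). Most of these degrees of freedom come from the spread shared across genes, not from a gene's own libraries. The fit was tested on simulated data. Every value rests on 2 libraries against 2. Alternatives were DESeq2 1.42.0, limma-voom (limma 3.58.1), other scalings and filters, a replicate block, offsets from natural splines (4 degrees of freedom) of GC content and length, and leaving out each library.

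Positions, lengths and coding sequences come from GENCODE M21 (GRCm38). Named genes are the 8 members, Kif5c, the 4 smallest p-values of each pathway list and the 3 nearest profiles of Camk2a, Camk2n1 and Calm3. A gene that this rule took is not reported here. Ttr, Mog, Spink8 and Grin2a were named after their values were seen. Count ratios within libraries, the 31-base measure and the printed sequences were also chosen after values were seen. The members and lists were chosen with earlier results of these data known.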

Additional observations from a re-analysis of the deposited data

How the results depend on the processing

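Every value rests on 2 libraries per antibody, and the limit set by depth was not separated from that set by the spread between libraries. No alternative fit tried called Camk2a, Camk2d, Camk2g, Camk2n2 or Calm3. Camk2b passed with DESeq2 (0.72, adjusted p = 0.034). In edgeR it passed with a replicate block (0.72, adjusted p = 0.0217) and with that block plus GC and length offsets (0.49, adjusted p = 0.048). The block plus offsets also called Calm2 (0.58) and Camk2n1 (-0.65), in a fit that called 991 of all 14357 genes higher and 552 lower. Camk2n2 turned to -0.0096 with the offsets and to -0.016 with block and offsets. The labels name no shared animals or batch behind a replicate number, and 2 pairs are too few to decide it from the data. Deviations of same-numbered libraries correlated at 0.14 over genes. The libraries numbered 2 nevertheless differed from those numbered 1 in the same direction in both groups. Protein-coding genes took 75.1% and 49.0% of the Kif5C IP counts and 69.4% and 38.4% of the IgG counts. The numbers were not taken to pair the samples, so the main fit did not remove a difference shared by replicate number. Without 1 library at a time, log2 fold changes ran between 0.39 and 0.48 for Camk2a, 0.53 and 0.91 for Camk2b, -0.061 and 0.38 for Camk2d, 0.40 and 0.66 for Camk2g, -0.78 and -0.018 for Camk2n1, -0.081 and 0.27 for Camk2n2, -0.15 and 0.36 for Calm2, and -0.30 and -0.05 for Calm3. The cause of these shifts was not tested.

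Over all genes edgeR called 478 higher and 107 lower, against 1162 and 517 with the block, 404 and 132 with the offsets, 1 and 4 with library totals, and from 116 and 27 (without Kif5C IP replicate 1) to 978 and 586 (without IgG replicate 1). Members called higher numbered 0, against 1 with DESeq2, 1 with the block and 2 with block and offsets, and members called lower 0, against 1 with block and offsets and 0 to 1 without 1 library. Docking partners called higher numbered 0, against 3 with DESeq2, 2 with limma-voom, 2 with no low-count filter, 2 at a mean count of at least 50, 3 with the block, 1 with block and offsets, 3 at an adjusted p of 0.1 and 0 to 4 without 1 library. Other effectors called higher numbered 2, against 4 with DESeq2, no filter, the block or an adjusted p of 0.1, 1 with offsets, 0 with library totals or a minimum change of 2-fold, and 0 to 6 without 1 library; block and offsets called 1 lower. Calmodulin-holding proteins called higher numbered 1, against 0 with library totals or a minimum change of 2-fold, 2 with block and offsets, and 0 to 1 without 1 library. The CaMK kinases had 1 higher with the block. Calcineurin genes had 1 lower with block and offsets and 0 to 1 higher without 1 library. Phosphatase genes had 1 higher with DESeq2, the block or block and offsets, 2 lower with block and offsets and 0 to 1 lower without 1 library. The Camk2a share differed by -6.62 to -1.43 percentage points without 1 library and the Calm3 share by -9.09 to -0.51. Of 398 values of the 25 other named genes, 343 kept their side of the threshold, 40 passed newly, 15 missed it and 0 changed direction.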
